A study of Mus musculus with 5 samples.

Results

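The data describe CpG methylation at 4 mouse genes, Tmem223, Nxf1, Tut4 and Fam217a, in leukemic blasts with and without Tet2. These are 4 of 21755 protein-coding genes on the autosomes and the X chromosome, and they form 3 loci, because Tmem223 starts just behind the end of Nxf1 on chromosome 19. The loci were chosen on these same libraries: the Tmem223 and Tut4 promoters because they were lower in Tet2-/- than in Tet2+/+ libraries, a 5 kb tile of Fam217a for the same reason, and Nxf1 as the neighbour whose last exon lies in the Tmem223 promoter. The levels and differences of these regions are therefore given as a description without a test. At Fam217a and Tmem223 the loss of methylation was in a short CpG-rich stretch, and at Tut4 a small loss lay at few dyads of a CpG island and at its edges. It was not seen at the Nxf1 promoter, across the Nxf1 gene, or at the outermost start site of Fam217a.

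Whole-genome bisulfite sequencing (WGBS) was done on 5 libraries of bone marrow blasts, labelled as strain C57BL/6, from mice with acute myeloid leukemia (AML). All 5 leukemias were Cebpa-/p30, that is, a Cebpa allele was deleted and the remaining allele makes p30, a shortened form of CEBPA, a transcription factor of myeloid cells. Tet2 was Tet2+/+ in 2 libraries (numbers 23 and 24) and Tet2-/- in the other 3 libraries (numbers 5, 7 and 8). By the study's methods, floxed alleles were deleted with Mx1-Cre, an interferon-inducible recombinase that also acts outside the blood, after marrow of individual donors had been transplanted into irradiated recipients of the congenic strain C57BL/6J.SJL and Cre had been induced with poly(I:C). Donor-derived cells without lymphoid or erythroid surface markers were sorted from moribund mice, and the age of the animals was not in the labels. The p-values below measure the spread between these 5 libraries, each from 1 leukemia. The study gave marrow of each donor to several recipients, so libraries may share a donor, which the sample titles do not tell.

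TET2 is a dioxygenase that oxidises 5-methylcytosine, a step on the way to its removal, so that cells without it are known mainly for gain of methylation at enhancers and other regulatory sites. CpG-rich stretches at start sites, called CpG islands, are usually kept free of methylation in all tissues, while the CpGs of gene bodies and of most other DNA are usually methylated. NXF1 is the receptor that carries mRNA through the nuclear pore. TUT4 is a terminal uridylyltransferase that adds uridines to the 3′ ends of RNAs, among them the precursors of let-7 microRNAs together with LIN28. TMEM223 is a mitochondrial protein of the assembly of cytochrome c oxidase, and Fam217a is a little characterised gene.

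Calls per CpG dyad (both strands of a CpG added) averaged 2.96 to 5.19 per library. The level of a region is its methylated calls over all its calls. Over all dyads this level was 62.3% and 67.3% in the Tet2+/+ libraries and 68.4% to 74.8% in the Tet2-/- libraries, so the background of the comparisons was a higher level in every Tet2-/- library. Within Tet2, 36 neighbouring dyads (chr3:133466411-133468352), found as the longest run without a call in any Tet2-/- library, had 128 and 151 calls in Tet2+/+ libraries 23 and 24. The promoter of the myeloid regulator gene Spi1 was at 3.39% to 12.1% and that of Mpo, the gene of a granule enzyme, at 7.46% to 16.2% in all 5 libraries. The promoters of the T-cell gene Cd3e and the B-cell gene Cd79a were at 55.4% to 89.1%. The promoters of Elane (33.3% to 53.4%) and Ptprc (18.7% to 33.7%) lay between these. A level is an average over the cells sorted, so that fewer cells with a methylated stretch and less methylation in each cell cannot be told apart.

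Fam217a (minus strand, chr13:34909960-34924310, GRCm38) held the largest loss of the 3 loci. The loss lay around the start of the internal transcript Fam217a-204. The 5 kb tile with the lowest difference at this locus (chr13:34915001-34920000, 70 dyads) was at 87.6% and 86.8% in Tet2+/+ libraries 23 and 24, and at 44.5%, 42.6% and 43.7% in Tet2-/- libraries 5, 7 and 8. Both Tet2+/+ libraries were close to each other, as were the 3 Tet2-/- libraries, and the groups did not overlap. Averaged by group, Tet2+/+ was at 87.2% ± 0.523 (SD, n = 2) and Tet2-/- at 43.6% ± 0.949 (SD, n = 3). By this difference of -43.6 points the tile was number 3 from the lowest of 488658 tiles, whose median difference was 6.14 points. The tile was chosen by this difference, so that its rank is a description only.

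To place the loss, the longest run of neighbouring dyads under 20% in the pooled Tet2-/- calls was taken as the low segment of each locus. At Fam217a it was 364 bp long (chr13:34916716-34917079) with 35 dyads, from 90 bp upstream to 273 bp downstream of the start of Fam217a-204. It covers the first exon of Fam217a-204, which is coding sequence in the longer transcript Fam217a-202, and reaches into introns on both sides. With 9.62 CpGs per 100 bp, 67.6% G and C and an observed over expected CpG ratio of 0.842 it was the most CpG-dense of the 3 segments, against 1.40 CpGs per 100 bp in the tile as a whole. The 90 bases upstream of the start of Fam217a-204 (chr13:34916990-34917079, minus strand, GRCm38 genome) are shown because they hold the switch in its shortest form, with the 8 CpGs in capitals.
Fam217a-204 upstream: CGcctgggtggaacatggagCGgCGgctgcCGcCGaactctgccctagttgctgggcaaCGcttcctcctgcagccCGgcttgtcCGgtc
At these 8 CpGs, 13 of 16 and 17 of 18 calls were methylated in Tet2+/+ libraries 23 and 24. In Tet2-/- libraries 5, 7 and 8, 1 of 61, 0 of 61 and 1 of 22 calls were methylated. The count of 0 allows a level of up to 4.92%.

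Over the whole Fam217a low segment, 51 of 56 calls (91.1%, 95% Wilson interval 80.7% to 96.1%) were methylated in Tet2+/+ library 23 and 47 of 55 (85.5%, 73.8% to 92.4%) in library 24. Methylated calls were 2 of 226 (0.885%), 2 of 218 (0.917%) and 1 of 106 (0.943%) in Tet2-/- libraries 5, 7 and 8. Such intervals cover counting error only and are too narrow, since neighbouring CpGs on 1 read give several calls that are not independent. Thus the stretch was almost fully methylated in both Tet2+/+ libraries and almost free of methylation in all 3 Tet2-/- libraries. All 35 dyads were called in both groups, each was higher in the pooled Tet2+/+ calls, and 28 of them were at 80% or more there, 15 of these on only 1 or 2 pooled Tet2+/+ calls. Of the 35, 30 had no methylated call in Tet2-/-. Both strands had this pattern, with 87.5% and 96.0% against 0%, 0% and 0% on the plus strand, and 92.5% and 76.7% against 1.32%, 1.45% and 1.19% on the minus strand.

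The segment was taken from low Tet2-/- calls, which fixes its own direction and its ends, since the run stops where Tet2-/- calls are higher. The 3 dyads on the side of lower coordinates were at 85.0% in pooled Tet2+/+ and 75.9% in pooled Tet2-/- calls, and those on the other side at 91.7% and 91.5%. Without the low segment, the other 35 dyads of the tile were at 86.3% and 87.3% in Tet2+/+ and at 93.5%, 92.8% and 78.0% in Tet2-/- libraries. The means of the rest differed by 1.32 points, with Tet2-/- library 8 below both Tet2+/+ libraries, and taking out dyads that were low in Tet2-/- raises the Tet2-/- level of what remains. The start of the retained-intron transcript Fam217a-203 lies inside the low segment. Fam217a-204 is itself annotated as protein-coding. Around the starts of the other protein-coding transcripts, Fam217a-202, the outermost, and Fam217a-201, both groups were methylated. The 2001 bp around the outermost start (chr13:34923310-34925310) were at 69.6% and 92.3% in Tet2+/+ and 85.7% to 89.0% in Tet2-/- libraries, with overlapping groups. Around the start of Fam217a-201 the means were 87.4% ± 1.58 (n = 2) and 87.5% ± 7.76 (n = 3). A window of 10 dyads, 2238 bp downstream of the start of Fam217a-204 at its centre, was low in all libraries, at 11.4% and 4.76% in Tet2+/+ and at 0% to 1.59% in Tet2-/-. The groups did not overlap there either.

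**Figure D1:**
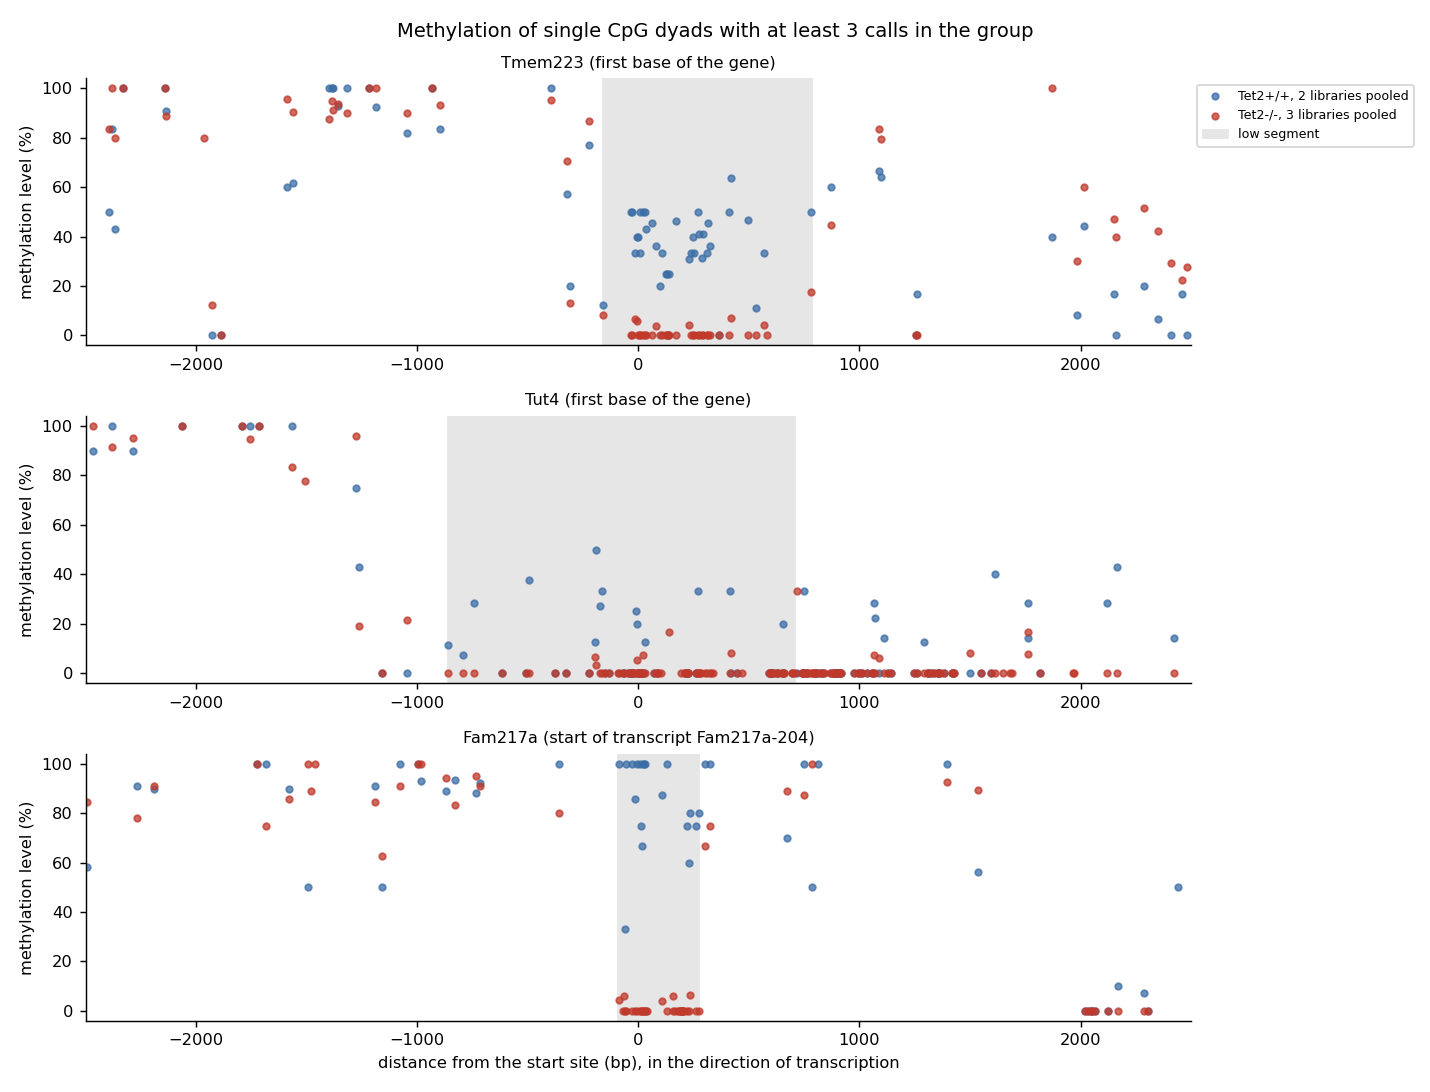
Methylation level (y axis, %) of single CpG dyads with at least 3 calls in the group, pooled over the 2 Tet2+/+ (blue) or 3 Tet2-/- (red) libraries, against the distance from the start site in bp; the low segment is shaded. At Fam217a the blue points in the shaded 364 bp lie at 60% or more, except for 1 dyad with 1 of 3 calls methylated, while the red points are at or near 0; at Tmem223 blue points lie mostly between 20% and 60%, and at Tut4 most points of both groups are at 0.

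The window of 500 bp that holds most of the Fam217a segment (chr13:34916501-34917000, 30 dyads) was at 95.6% and 85.1% in Tet2+/+ and at 4.0%, 5.62% and 0% in Tet2-/- libraries. Among 46472 windows of 500 bp with at least 20 dyads and at least 10 calls in every library, 7916 were at 80% or more in both Tet2+/+ libraries. This was the 1 window of them that was at 20% or less in all 3 Tet2-/- libraries. In the opposite direction, 9 of the 27373 dense windows at 20% or less in both Tet2+/+ libraries were at 80% or more in all 3 Tet2-/- libraries. By the difference of group means this window and the next one (chr13:34917001-34917500, 8 dyads) were numbers 2 and 3 from the lowest of 1899555 windows of 500 bp. The window of 1 kb (chr13:34916001-34917000) was the lowest of 1047054, at 91.1% and 85.5% against 10.6%, 10.6% and 10.8%. Since the locus was chosen by its low difference in these libraries, these ranks and the count of 1 window follow from the choice. They are a description and give no support of their own.

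Tmem223 (plus strand, chr19:8770996-8772475) was partly methylated in Tet2+/+ and nearly free of methylation in Tet2-/- libraries in a stretch around its first exon. The promoter, from 1000 bp before to 1000 bp after the first base (chr19:8769996-8771996, 46 dyads), was at 55.3% and 32.7% in Tet2+/+ libraries 23 and 24, and at 10.3%, 9.68% and 13.02% in Tet2-/- libraries 5, 7 and 8. The Tet2+/+ libraries were far apart from each other, yet both were above every Tet2-/- library. Averaged by group, Tet2+/+ was at 44.0% ± 16.02 (SD, n = 2) and Tet2-/- at 11.01% ± 1.77 (SD, n = 3). The low segment (chr19:8770838-8771780, 943 bp, 39 dyads) ran from 158 bp upstream to 784 bp downstream of the start. It takes in the last bases of Nxf1, the 73 bases between the genes, the first exon of Tmem223 and part of its intron. Its CpG density was 4.14 per 100 bp, with an observed over expected ratio of 0.609.

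Both stretches shown are from the GRCm38 genome on the plus strand, with CpGs in capitals. The first is the whole gap between Nxf1 and Tmem223 (chr19:8770923-8770995) and the second the first 210 coding bases of Tmem223 (chr19:8771009-8771218), which carry the difference into the protein-coding part of the gene.
Gap between Nxf1 and Tmem223: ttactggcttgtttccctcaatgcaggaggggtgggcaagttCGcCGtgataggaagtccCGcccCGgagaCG
Tmem223 exon 1, coding: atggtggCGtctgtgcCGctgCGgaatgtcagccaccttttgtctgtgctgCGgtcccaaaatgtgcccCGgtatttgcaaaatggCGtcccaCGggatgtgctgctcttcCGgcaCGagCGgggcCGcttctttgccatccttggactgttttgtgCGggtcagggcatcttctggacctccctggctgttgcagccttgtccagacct
The 5 CpGs of the gap had 2 of 6 and 7 of 15 methylated calls in Tet2+/+, and 2 of 40, 0 of 26 and 0 of 13 in Tet2-/- libraries. The 12 CpGs of the coding stretch had 20 of 42 and 14 of 58 methylated calls in Tet2+/+, and 1 of 110, 0 of 112 and 0 of 56 in Tet2-/- libraries. Counts of 0 over 112 and 56 calls allow levels of up to 2.68% and 5.36%.

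Over the whole Tmem223 low segment the Tet2+/+ libraries were at 50.3% (95% Wilson interval 42.5% to 58.1%) and 27.9% (22.4% to 34.2%), intervals that do not overlap, although they too treat the calls of 1 read as independent. The Tet2-/- libraries were at 1.41%, 0.291% and 2.47%, with upper limits of 3.26%, 1.63% and 6.18%. Like those of Fam217a and Tut4, this segment was taken from low Tet2-/- calls, which fixes its direction and its ends. Of its 39 dyads, 37 were higher in Tet2+/+ and none higher in Tet2-/-. In contrast to Fam217a, no dyad of the segment was at 80% or more in pooled Tet2+/+ calls, and the median dyad there was at 40%, against 0% in Tet2-/-. The 3 dyads before the segment were at 60% in pooled Tet2+/+ and 55.6% in pooled Tet2-/- calls, and the 3 dyads after it at 63.9% and 68.3%. The other 7 dyads of the promoter were at 78.8% and 69.0% in Tet2+/+ and at 64.4% to 70.0% in Tet2-/- libraries.

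Nxf1 (plus strand, chr19:8757073-8770922) showed no such loss. Of the Tmem223 low segment, the dyad at -158 bp from the start of Tmem223 lies inside Nxf1. There 1 of 8 pooled Tet2+/+ and 1 of 12 pooled Tet2-/- calls were methylated. The next dyad, at -31 bp, already lies in the gap between the genes. The Nxf1 promoter (chr19:8756073-8758073, 100 dyads) was nearly free of methylation in every library, at 1.75% and 0.309% in Tet2+/+ and at 1.17%, 1.65% and 0.860% in Tet2-/-. The gene body (205 dyads) was at 62.6% and 59.2% in Tet2+/+ and at 64.6%, 61.9% and 64.2% in Tet2-/- libraries. The groups overlapped in both regions, with differences of 0.200 and 2.65 points. Leaving out Tet2+/+ library 23 or 24 moved the gene body difference to 4.37 or 0.934 points. The label of methylation loss therefore does not describe Nxf1 itself. Closer to Tmem223, in 2 windows of 500 bp in the last part of Nxf1 (chr19:8767501-8768000 and chr19:8769001-8769500), the Tet2-/- libraries were higher by 14.2 and 37.1 points. Beyond Tmem223, in the next gene Tmem179b, the windows chr19:8773001-8773500 and chr19:8773501-8774000 were higher by 30.7 and 11.97 points.

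**Figure D2:**
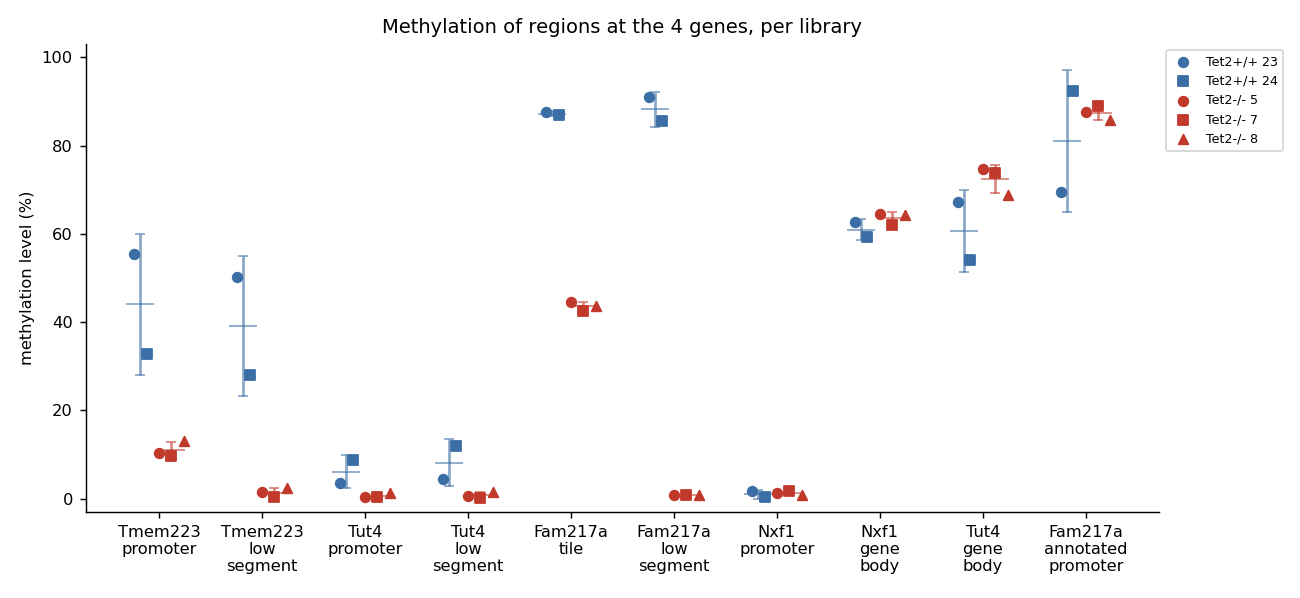
Methylation level (y axis, %) of 10 regions at the 4 genes, with 1 point per library (blue Tet2+/+, red Tet2-/-) and bars for the group mean ± SD (n = 2 and n = 3). The Tet2-/- points lie below both Tet2+/+ points in the first 6 regions, from the Tmem223 promoter to the Fam217a low segment, and overlap them or lie above in the last 4.

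Tut4 (plus strand, chr4:108459426-108559421) showed a small loss at its CpG island and higher levels across its body, the direction also of all dyads together. The promoter (chr4:108458426-108460426, 138 dyads) was at 3.46% and 8.80% in Tet2+/+ libraries 23 and 24, and at 0.463%, 0.343% and 1.29% in Tet2-/- libraries 5, 7 and 8. All 5 libraries were under 10%, and the groups did not overlap. The difference of -5.43 points (means 6.13% ± 3.77 and 0.697% ± 0.513) rested on 9 of 260 and 19 of 216 methylated calls in Tet2+/+ and 2 of 432, 2 of 583 and 4 of 311 in Tet2-/-. The bases upstream of the RefSeq start of Tut4 (chr4:108459160-108459409, plus strand, RefSeq promoter window of GRCm38.p6) are shown because 4 of the 9 methylated calls of the promoter in Tet2+/+ library 23 and 7 of the 19 in library 24 fell in them, with 17 CpGs in capitals.
Tut4 upstream: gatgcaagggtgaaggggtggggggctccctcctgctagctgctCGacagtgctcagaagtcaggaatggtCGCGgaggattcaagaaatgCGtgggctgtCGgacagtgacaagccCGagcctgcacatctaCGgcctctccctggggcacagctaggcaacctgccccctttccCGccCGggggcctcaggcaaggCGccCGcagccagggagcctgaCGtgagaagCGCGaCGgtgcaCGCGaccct
In this stretch 4 of 44 and 7 of 35 calls were methylated in Tet2+/+, and 0 of 147, 0 of 179 and 3 of 100 in Tet2-/- libraries. The methylated Tet2+/+ calls were not spread over the stretch. All lay at the CpGs at -195, -193, -175 and -165 bp from the first base of the gene. There 1 of 8, 4 of 8, 3 of 11 and 3 of 9 pooled Tet2+/+ calls were methylated, and the other CpGs shown had none. The Tut4 low segment (chr4:108458565-108460134, 1570 bp, 105 dyads) was at 4.41% and 11.9% in Tet2+/+ and at 0.542%, 0.214% and 1.498% in Tet2-/-. Of its 85 dyads called in both groups, 70 had no methylated call in Tet2+/+ and 79 none in Tet2-/-. The methylated Tet2+/+ calls lay at 15 of these dyads, all of them higher in Tet2+/+, and 4 other dyads were higher in Tet2-/-. Around the second start, of Tut4-202, the levels were 3.74% and 4.79% against 0.579%, 0.441% and 1.36%.

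The 2 windows of Tut4 that passed as lower were at the edges of the island. One lay upstream (chr4:108458501-108459000, 6 dyads, 2.78% and 25% against 0%, 0% and 0%) and the other in the first intron (chr4:108461001-108461500, 10 dyads, 19.0% and 13.3% against 3.13%, 5.0% and 6.25%). In the upstream window Tet2+/+ library 24 was far above library 23. Beyond the island the direction was opposite. The Tut4 gene body (642 dyads) was at 67.1% and 54.0% in Tet2+/+ and at 74.6%, 73.8% and 68.9% in Tet2-/- libraries, a difference of 11.9 points with groups that did not overlap. Tet2+/+ library 24 was far below library 23, and library 23 was close to Tet2-/- library 8. Over all dyads the groups did not overlap either, at 67.3% and 62.3% in Tet2+/+ libraries 23 and 24 against 68.4% to 74.8%.

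Windows along the 3 loci with 10 kb on each side were counted as lower when all Tet2-/- libraries were below both Tet2+/+ libraries and the means differed by at least 10 points, and as higher in the reverse case. Of 350 windows of 500 bp, 135 had at least 10 calls in every library. Of these, 9 were lower and 33 higher, where 1.48% of all such windows of the genome were lower and 21.7% higher. The 33 were 54 without Tet2+/+ library 23 or Tet2-/- library 8, and 9 at double the minimum of calls. The number of windows that pass and the genome shares can change with these settings too. They are not given, so that these counts cannot be set against 21.7%. Because the loci were chosen on this contrast, nothing is read from the count of lower windows. The 9 were 5 at Nxf1 and Tmem223, 2 at Tut4 and 2 at Fam217a. Of the 5, 3 made up the Tmem223 stretch and 2 lay in Taf6l, a gene of a transcription coactivator complex, with 3 dyads each. Higher windows were 20 of 48 at Tut4, with differences of 12.9 to 51.5 points, 9 of 38 at Fam217a with 10.49 to 22.4 points, and 4 of 49 at Nxf1 and Tmem223 with 11.97 to 37.1 points. The Tut4 share was 41.7% of its windows, and windows of 1 gene are not independent of each other. In 1 kb windows with at least 20 calls, 4 of 67 were lower and 12 higher, against genome shares of 0.778% and 23.4%. None of the 16 Tut4 windows of 1 kb that passed was lower.

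**Figure D3:**
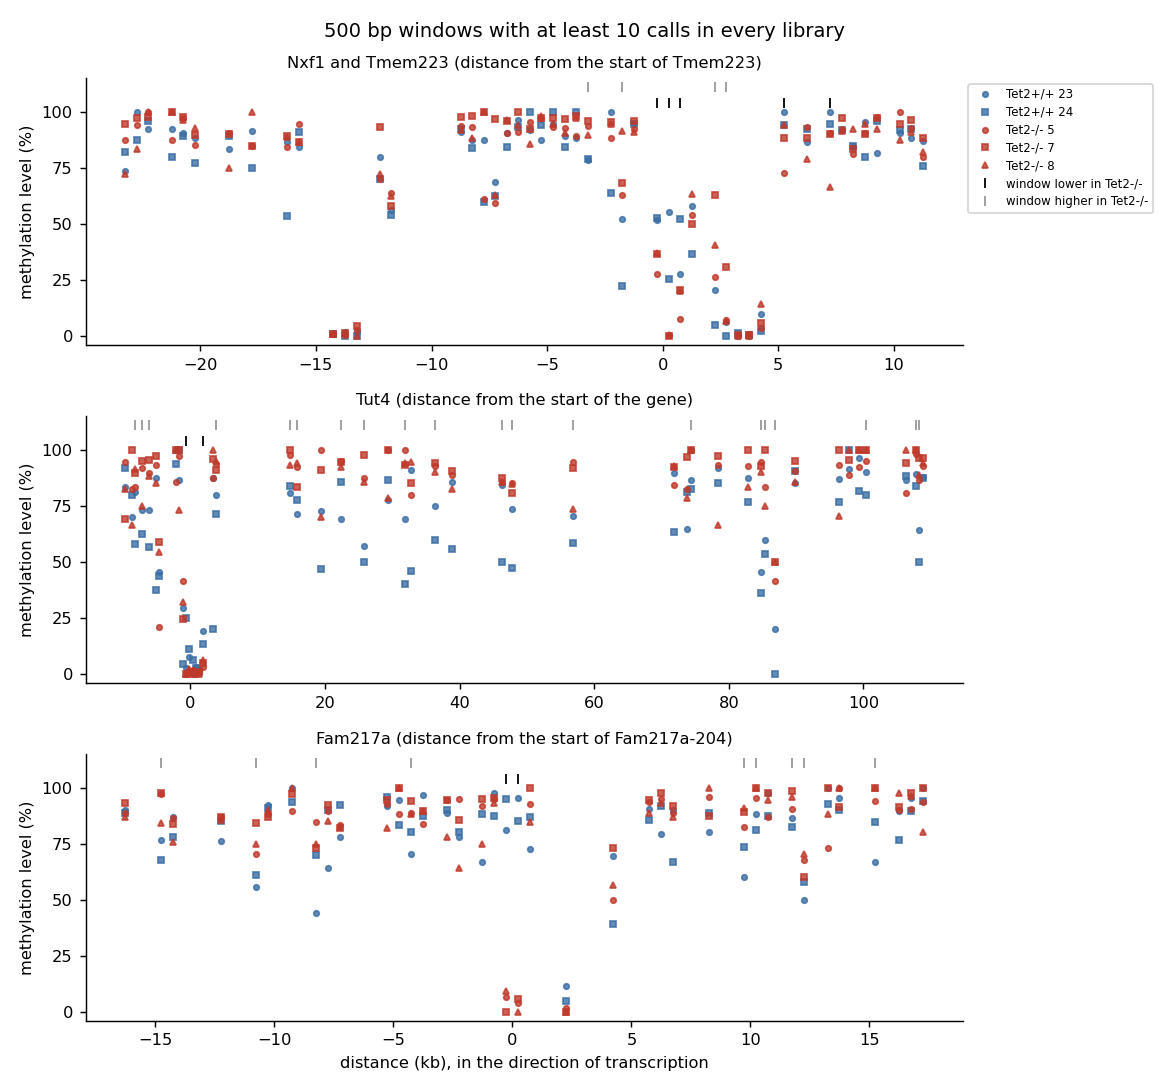
Methylation level (y axis, %) of 500 bp windows with at least 10 calls in every library along the 3 loci, against the distance in kb from the start of Tmem223, Tut4 or Fam217a-204, with 1 point per library; ticks above mark windows lower (black) or higher (grey) in Tet2-/-. The 9 black ticks sit mainly at the start sites, and the 20 grey ticks at Tut4 are spread over the gene and its flanks.

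Coverage was compared as well, although call depth entered the choice of loci through the minimum of calls and the counts tested. Its values in the groups did not overlap at Fam217a and at Tut4. Relative coverage is the calls per dyad of a region over those in the 500 kb on each side. In the Fam217a tile the Tet2+/+ libraries had 0.817 and 0.877 and the Tet2-/- libraries 1.20, 1.12 and 1.17, a ratio of means of 1.37. The groups did not overlap, and the exact permutation test (two-sided) gave p = 0.1, the smallest that 2 against 3 libraries allow, and 0.5 after Benjamini-Hochberg adjustment over the 5 regions. In the Fam217a low segment the values were 0.421 and 0.438 in Tet2+/+ against 1.27, 1.23 and 1.04 in Tet2-/-, a ratio of 2.74. The high level of this segment in Tet2+/+ thus rested on fewer calls per dyad than the DNA around it had. At the Tut4 low segment relative coverage was 0.518 and 0.390 against 0.652, 0.786 and 0.818. The Tut4 promoter was at 0.501 and 0.424 against 0.579, 0.746 and 0.724 (exact permutation p = 0.2, adjusted 0.5). The groups overlapped at the Tmem223 promoter (exact permutation p = 0.4, adjusted 0.5), the Nxf1 promoter (0.4, adjusted 0.5) and the Nxf1 body (0.6, adjusted 0.6). No region could pass the threshold of 0.05 in this test.

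Coverage of CpG-dense windows is given beside this as an average. Depth relative to the library mean was 0.760 to 0.905 in 6723 windows of at least 20 dyads that were at 80% or more in all 5 libraries. In 23685 windows at 20% or less in all 5 it was 0.976 and 1.07 in Tet2+/+ libraries 23 and 24. In Tet2-/- libraries 5, 7 and 8 it was 1.13, 1.33 and 1.18. The groups thus did not overlap in this class of windows of the genome either. In each library the methylated dense windows were covered less on average than the unmethylated ones. These averages are on another scale than the values above and do not show how far 1 window can depart from them. The part of coverage in the methylation differences was not tested. The levels of the Fam217a segment in Tet2+/+ describe the DNA that gave calls, and the level of DNA that gave none cannot be read from these counts.

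**Figure D4:**
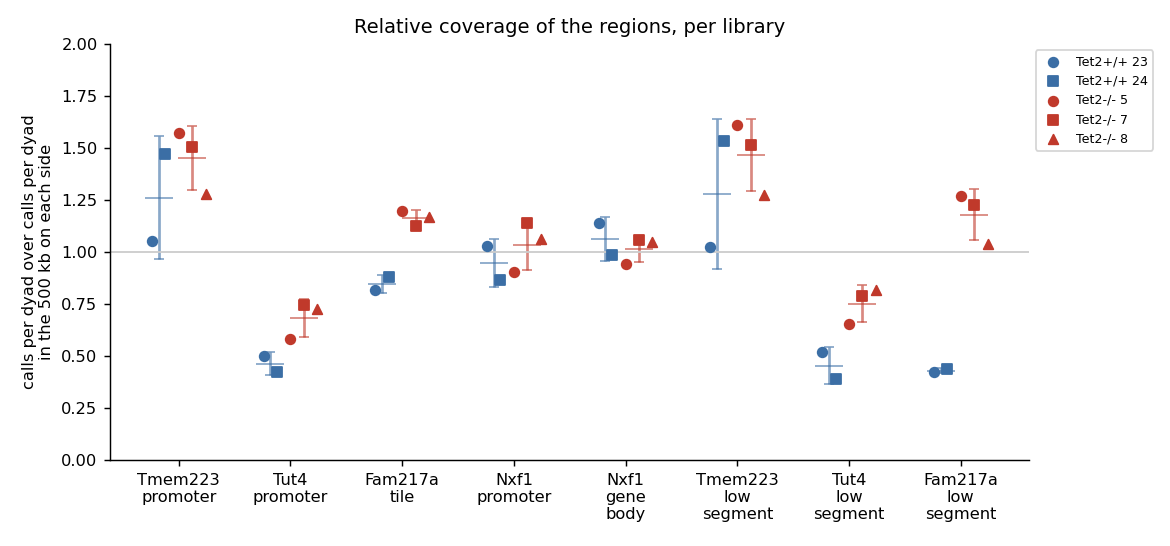
Relative coverage (y axis, calls per dyad over calls per dyad in the 500 kb on each side, no unit) of 8 regions, with 1 point per library (blue Tet2+/+, red Tet2-/-) and bars for the group mean ± SD. The widest gap is at the Fam217a low segment, with both Tet2+/+ libraries near 0.43 and the Tet2-/- libraries between 1.04 and 1.27.

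The promoters around the loci were compared by the same measure. Of 20 protein-coding genes whose start lies within 100 kb of the start of one of the 4 genes, all 20 were tested with edgeR and none passed at an adjusted p of 0.05. In the genome 1.06% of 19455 promoters passed as higher and 0.0154% as lower, so that a count of 0 among 20 is near the background and nothing is read from it. These shares, from 206 higher and 3 lower promoters, changed with single libraries. Without library 23 edgeR called 19 higher and 2 lower, and without library 24 none, with 1598 at an unadjusted p under 0.05. With limma after subtraction of library medians, 8 were higher and 1 lower. At an unadjusted p under 0.05, 2 of the 20 passed with edgeR's quasi-likelihood test and 2 with limma, where 18.1% and 17.7% of all promoters passed. These were Eci3, the gene of an enzyme of fatty acid oxidation (13.2% ± 0.655 to 36.9% ± 12.8, edgeR adjusted p = 0.0729), and Chrm1, a muscarinic acetylcholine receptor gene (39.0% ± 8.52 to 70.5% ± 13.6, edgeR adjusted p = 0.107), both with a higher mean in Tet2-/- (edgeR). In all, 15 of the 20 (75%) had a higher and 5 a lower mean in Tet2-/-, and the mean was higher at 76.7% of all promoters. The lowest difference was at AC129217.1, 58777 bp from Tmem223, at 29.1% and 31.0% in Tet2+/+ and at 26.7%, 16.1% and 21.0% in Tet2-/- libraries (edgeR adjusted p = 0.498). The groups did not overlap at this promoter, and its difference of -8.77 points was larger in size than that of Tut4. Next to Tmem223, the promoter of Tmem179b, 3471 bp away on the opposite strand, was at 1.80% and 1.05% in Tet2+/+ and at 1.95%, 3.74% and 3.04% in Tet2-/- libraries (edgeR adjusted p = 0.312). On the other side of Nxf1, the promoter of Stx5a, which encodes a syntaxin of the Golgi, differed by 1.26 points (edgeR adjusted p = 0.892). The nearest promoter to Tut4 was that of Gpx7, the gene of a glutathione peroxidase, at 44.0% ± 4.17 and 47.5% ± 16.6 (edgeR adjusted p = 0.891). The start of 4933417A18Rik lies 99 bp from the outermost start of Fam217a on the opposite strand, and its promoter was at 61.3% and 88.2% in Tet2+/+ and 82.5% to 85.2% in Tet2-/- libraries (edgeR adjusted p = 0.534). On the other side Prpf4b, a kinase gene of pre-mRNA splicing, was at 1.37% ± 0.539 and 1.07% ± 0.0739 (edgeR adjusted p = 0.746).

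Genes with related functions were counted in the same way. Lists for the roles of NXF1, TUT4 and TMEM223 held 81 tested promoters in all together with Fam217b, the 4 genes themselves left out. Of these, 2 passed with edgeR's quasi-likelihood test, both higher in Tet2-/-, and none was lower. Both counts are close to the shares of 1.06% and 0.0154% of all promoters and say nothing particular of the lists. Among 30 tested genes of nuclear mRNA export 1 was called, 22 had a higher mean (73.3%, against 76.7% of all promoters), and the median difference was 0.708 points, against 2.22 points over all promoters. The called gene was Nxt2, a cofactor of NXF1 in export, which lies on the X chromosome. Its promoter (chrX:142225770-142227770) was at 42.9% and 20.7% in Tet2+/+ and at 76.5%, 80.5% and 64.4% in Tet2-/- libraries, so that it rose by 42.0 points (edgeR adjusted p = 0.0362). The adjusted p was 0.0680 without Tet2+/+ library 23, 0.512 without library 24, 0.0598 without Tet2-/- library 5 and 0.0830 without library 7 (edgeR). The other extreme of the list was Nup62, a nuclear pore gene, at 10.2% ± 0.368 and 6.87% ± 1.51 (edgeR adjusted p = 0.389).

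Among 28 genes of cytochrome c oxidase assembly, 1 was called, 22 had a higher mean (78.6%), and the median difference was 1.06 points. The called gene was Cmc1, which encodes an assembly factor of this complex. Its promoter (chr9:118149177-118151177) was at 3.62% and 1.90% in Tet2+/+ and at 12.3%, 19.0% and 23.7% in Tet2-/- libraries (edgeR adjusted p = 0.0139). The rise was 15.6 points. When Tet2+/+ library 23 or 24 was left out, the edgeR adjusted p was 0.0641 or 0.325, and the difference was 2.01 points in promoters of 500 bp on each side. The lowest difference was that of Cox16, at 13.6% ± 0.659 and 11.4% ± 2.04 (edgeR adjusted p = 0.739).

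None of 22 genes of terminal nucleotidyltransferases and let-7 processing passed (5 with an unadjusted edgeR p under 0.05), with 16 higher means (72.7%) and a median difference of 0.744 points. The highest difference was at Papolb, a testis poly(A) polymerase gene, with 47.5% ± 13.7 and 71.3% ± 4.08 (edgeR adjusted p = 0.0952). The lowest was at Tent5d on the X chromosome, with 82.8% ± 1.34 and 74.0% ± 15.3 (edgeR adjusted p = 0.652). Fam217b, the paralog of Fam217a, was at 24.4% ± 7.65 and 22.8% ± 3.97 (edgeR adjusted p = 0.902). Over the 81 promoters, 19 (23.5%) had an unadjusted p under 0.05 with edgeR and 16 (19.8%) with limma, against 18.1% and 17.7% of all promoters.

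The promoters of the same level in each library were sought by the mean absolute difference over the 5 libraries. Those most like Tmem223 were Hbq1a, a globin gene (8.02 points; 33.7% and 26.3% against 15.8%, 12.9% and 9.59%), Mmp2, a matrix metalloproteinase gene (8.03 points; 51.3% and 4.95% against 16%, 9.12% and 10.8%), and Gm3604 (8.14 points; 42.7% and 12.8% against 9.52%, 11.2% and 7.14%). At Mmp2 the groups overlapped, with Tet2+/+ library 24 below every Tet2-/- library. For Tut4 they were Slc2a6, a sugar transporter gene (1.33 points; 3.26% and 5.0% against 1.03%, 1.53% and 0.386%), Cbfa2t3, a corepressor gene of blood cells (1.43 points; 1.46% and 9.57% against 2.56%, 1.44% and 2.48%), and Lonrf1 (1.52 points; 2.69% and 4.63% against 1.74%, 1.31% and 1.72%). The groups overlapped at Cbfa2t3 as well. The tiles most like that of Fam217a lay outside protein-coding genes on chromosome 16 (chr16:53975001-53980000, 3.15 points), in Bank1 (5.05 points) and in Kcnab1 (5.05 points), with 12 to 31 dyads each against the 70 of the Fam217a tile. The tile on chromosome 16 was at 77.8% and 85% against 44.4%, 45.1% and 42.1%. Bank1 was at 91.2% and 88.2% against 32.4%, 45.5% and 48.9%, and Kcnab1 at 83.7% and 81.25% against 49.1%, 47.5% and 50%. The groups did not overlap at any of these tiles, so such a loss over a tile was not particular to Fam217a. The likeness is over 5 libraries and is a description. As for the limit of the choice, Tut4 was the last promoter inside the threshold. The next one outside it was Diras2, at 65.0% and 63.8% in Tet2+/+ and 32.2%, 27.9% and 38.5% in Tet2-/- libraries, a larger difference than that of Tut4.

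RefSeq promoter windows of 300 bases were held for 2 of the 4 genes, Tut4 and Nxf1, with 2 windows each. They were searched on both strands for the letters TTGCNNAA of CEBP factors, AGATAA of the GATA family, CCGGAA of the ETS family, GGGCGG of the SP/KLF family and TGACGTCA of the cyclic AMP response element (CRE). The Tut4 window printed in part above held 1 SP/KLF match and its second window none, and both Nxf1 windows, which overlap each other, held 3. SP/KLF letters were present in 35.7% of 32851 windows of all genes. None of the other 4 motifs was found in the 4 windows, and they occurred in 10.8% (CEBP), 11.2% (GATA), 14.9% (ETS) and 1.79% (CRE) of all windows. Tmem223 and Fam217a had no window in this table.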

How the data were processed

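The authors made WGBS libraries of sorted blasts by random priming after bisulfite treatment, trimmed reads with Trim Galore 0.4.3 and aligned them to GRCm38 with Bismark 0.19.1 and Bowtie2 (labels and study methods). Each deposited table lists 43816016 CpG cytosines, each with a raw count of methylated and a raw count of unmethylated reads. All dyads of chromosomes 4, 13 and 19 were CG in the GRCm38 genome. Reads are not labelled molecules, so that intervals and limits of 3 counts cover counting error only.

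The genes, regions and lists were chosen with earlier results of these data known. Both strands were added per dyad on the autosomes and X. Promoters (1000 bp on each side of the start of protein-coding genes in GENCODE vM21) entered when every library had 20 calls or more, and the quasi-likelihood test of edgeR 4.0.16 in R 4.3.3 was run on methylated and unmethylated counts, adjusted by Benjamini-Hochberg over 19455 promoters at 0.05. Gene models of 1 name with the same window counted once in the lists. The likelihood ratio test and limma 3.58.1 on log ratios with 2 counts added were alternatives. The promoter tests were checked on simulated data with large rises only. This check did not cover losses, small differences or a shift of whole libraries. Relative coverage was compared with an exact permutation test in scipy 1.17.1. Named genes were the 4 genes, the nearest tested promoter on each side within 100 kb, the members of each list called or otherwise the highest and the lowest difference, the 3 regions most alike, and Tet2 and the check promoters, of which 1 is not reported here. Eci3, Chrm1, AC129217.1, Taf6l and Diras2, and the extremes of the lists with a call (Nup62, Cox16), were named after their values were seen. The annotation lists strand, but bisulfite levels carry no sign of which gene a shared stretch belongs to. Alternatives also included other minimums of calls and region widths, single strands, thinning and leaving out each library.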

Additional observations from a re-analysis of the deposited data

How the results depend on the processing

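No paired analysis was possible because the groups share no replicate numbers. The difference of the Tmem223 promoter was -33.0 points, and it was -20.8 points at double width and from -44.3 to -21.7 points with 1 library left out, both ends from leaving out a Tet2+/+ library (24 and 23). At Tut4 the difference of -5.43 points ranged from -8.10 points without Tet2+/+ library 23 to -2.76 points without library 24. The Fam217a tile differed by -43.6 points, and by -32.8 points in dyads called in all 5 libraries, -32.6 points on the plus and -50.3 points on the minus strand, -60.4 points at a width 2 times smaller and -25.2 points at double width, and from -44.0 to -43.1 points with 1 library left out. The Nxf1 promoter, 0.200 points apart, changed sign on the minus strand (-0.545 points), at a width 2 times smaller (-0.103 points) and without Tet2+/+ library 24 (-0.519 points) or Tet2-/- library 7 (-0.0114 points), with 0.918 points without Tet2+/+ library 23. Without Tet2+/+ library 23 the relative coverage differences of the Tmem223 promoter (-0.0186 against 0.191) and the Nxf1 body (0.0294 against -0.0465) changed sign, and without library 24 they were 0.4003 and -0.122, and that of the Fam217a tile was 0.286 to 0.346 with any 1 library left out.

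Lower windows of 500 bp were 9, with 4 at double the minimum of calls, 14 with no minimum difference and 8 to 11 with 1 library left out. The 33 higher windows were 9 at double the minimum and 34 to 54 with 1 library left out (54 without Tet2+/+ library 23 or Tet2-/- library 8). Lower windows of 1 kb were 4, with 7 at no minimum difference and 4 to 5 with 1 library left out. The 12 higher windows were 3 at double the minimum, 20 with no minimum difference and 9 to 24 with 1 library left out. The 2 calls in the gene lists were 5 with edgeR's likelihood ratio test (Nxt1, Papolb and Tmem177 in addition), 1 with limma, 0 with limma after subtraction of library medians, 1 in promoters of 500 bp on each side and 0 to 2 with 1 library left out. Near the loci the 0 calls were 2 with the likelihood ratio test (Eci3 and Chrm1) and 0 to 1 with 1 Tet2-/- library left out. Over all 19455 promoters the likelihood ratio test called 906 higher and 12 lower, against 206 and 3 in the main test. With limma 76 were higher and 1 lower, and promoters of 500 bp on each side also gave fewer calls. The counts under other tests and widths are therefore not read as a result about the lists or the loci. The cause of these changes was not tested. By definition, another width lets more flanking dyads or fewer into the level. A higher minimum of calls lets in fewer windows, and with 1 library left out fewer libraries have to be apart. The window counts under these settings are therefore not set against the genome shares. Depth limits single dyads, which had few calls in a library, and most windows of Tut4 did not reach the minimum.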
